A study of Mus musculus with 19 samples.

Results

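Zbtb16 and 7 other genes of the glucocorticoid response (Fkbp5, Tsc22d3, Sgk1, Klf9, Nr3c1, Mt1 and Mt2) were followed through 19 RNA libraries of mouse dorsal root ganglia. They are 8 of the 36682 genes in the deposited table, found by gene name, and all 8 passed the filter on low counts. With AP20187, a drug used to deplete macrophages in these mice, the metallothioneins Mt1 and Mt2 rose in naive mice and in mice with joint surgery, by 2.10 to 3.81 times. Fkbp5 rose 1.93-fold and Sgk1 1.41-fold with the drug after surgery, and neither passed the test in naive mice. The calls after surgery, for Mt1 and Mt2 too, were lost when 2 of the 5 vehicle libraries, 63 and 64, stood alone as the comparison, which also leaves fewer libraries. The log2 fold changes then stayed positive, at 0.77 rather than 0.95 for Fkbp5, 0.32 rather than 0.50 for Sgk1, 0.54 rather than 1.07 for Mt1 and 0.95 rather than 1.31 for Mt2. Zbtb16 had a mean of 23.0 ± 13.1 CPM (SD, n = 5) in naive mice given vehicle and of 10.2 to 11.2 CPM in the other 3 groups, where CPM is the count relative to the library's TMM-scaled total. Tsc22d3 and Klf9 passed no test between groups, and Nr3c1 passed for the drug after surgery only under some other settings, such as a comparison with vehicle libraries 32 to 34 alone.

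Glucocorticoids enter the cell and bind the receptor encoded by Nr3c1, which is held ready by heat shock protein 90 and its co-chaperones. The bound receptor moves to the nucleus and switches on a set of target genes that is partly shared among tissues. One of them, Fkbp5, encodes a co-chaperone that lowers the receptor's affinity for the hormone and so closes a feedback loop. Metallothioneins are small cysteine-rich proteins that bind zinc and copper, and their genes respond to metals through the factor MTF1 as well as to glucocorticoids and inflammation. In sensory ganglia, neurons, the satellite glia around them, Schwann cells and resident macrophages can all carry the receptor.

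Every mouse was a homozygous male of the MaFIA strain, whose transgene is an inducible Fas suicide gene under the Csf1r promoter, so that it acts in Csf1r-expressing cells and not in macrophages alone. The 4 groups were naive mice given vehicle (n = 5), naive mice given AP20187 (n = 4), mice with destabilization of the medial meniscus (DMM, a knee surgery that leads to osteoarthritis) given vehicle (n = 5), and DMM mice given AP20187 (n = 5). AP20187 dimerises the transgene product. It or vehicle was injected into the peritoneum daily for 5 days, 8 weeks after surgery, and naive mice were matched in age and had no surgery (the age is not given in the sources used here). Ganglia of lumbar levels 3 to 5 on the operated side were pooled and the polyadenylated RNA was sequenced on its strand. Libraries carry sample numbers. Nothing in the labels ties a number to a separate mouse, cage or day, so p-values measure the spread between these samples. Zbtb16 was chosen by its difference between DMM and naive mice under vehicle in these libraries, where its unadjusted p ranked 2 of 14721 named genes. The ranks around it were held by Saa3 (log2 fold change 4.47) above, Phf11d (1.12) just below it and still inside the choice of 3 genes, and Sftpc (-6.95) just outside. That comparison is therefore described without a test for all 8 genes. Which values, if any, chose the other 7 genes is not recorded.

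Libraries held 60984830 to 74691396 counts. Markers of sensory neurons were present throughout, with all 8 detected and a summed level of at least 1480 CPM. Several marker lists differed with the drug. Summed over 7 markers of marrow granulocyte precursors (Mpo, Elane and others), the level was 554 to 1577 CPM in naive vehicle, 5519 to 16682 in naive AP20187, 265 to 4989 in DMM vehicle and 11523 to 19531 in DMM AP20187 libraries. Neuron markers summed to 5332 to 8504, 1480 to 5547, 3873 to 7984 and 1504 to 4388 CPM in the same order. The 6 skeletal muscle markers summed to 11.5 to 408, 1501 to 2311, 13.8 to 1766 and 16.0 to 142 CPM, where the 1766 is DMM vehicle 32. The 5 macrophage markers (Csf1r, Adgre1, Cd68, Cx3cr1 and Mrc1) had median sums of 120, 232, 128 and 319 CPM, so the median sum was not lower with the drug. The sums overlapped, at 88.7 to 334 CPM in DMM vehicle and 115 to 417 in DMM AP20187 libraries. In DMM mice 3 of the 5 had a positive log2 fold change with the drug, and in naive mice all 5 had. Among these markers, Mrc1 alone passed the test in DMM mice and Cd68 alone in naive mice, both higher with AP20187. In DMM mice 3 of 5 erythroid, 2 of 4 Schwann cell and 2 of 5 satellite glia markers were called lower with the drug (medians of -1.75, -0.74 and -0.62 on the log2 scale), and in naive mice 3 of 6 spinal cord glia markers were lower without overlap. Erythroid markers summed to 7784 and 18054 CPM in DMM vehicle 63 and 64 and to 1080 to 4679 in 32 to 34. The same split was seen for granulocyte precursor (1779 and 4989 against 265 to 1368) and macrophage markers (220 and 334 against 88.7 to 128). It also held for 5 fibroblast markers (4158 and 6487 against 1139 to 1970) and 5 adipocyte markers (7.42 and 34.1 against 3.51 to 3.95). Sums of neuron, satellite glia, Schwann cell, spinal cord glia and muscle markers overlapped between the 2 series. The part of these shifts in the results was not tested, and in pooled tissue fewer cells of a type and less RNA per cell cannot be told apart. DMM vehicle libraries have numbers of 2 series, 32 to 34 and 63 to 64, and the DMM AP20187 libraries are 58 to 62. The drug's values in DMM mice are therefore also given against each series.

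**Figure D1:**
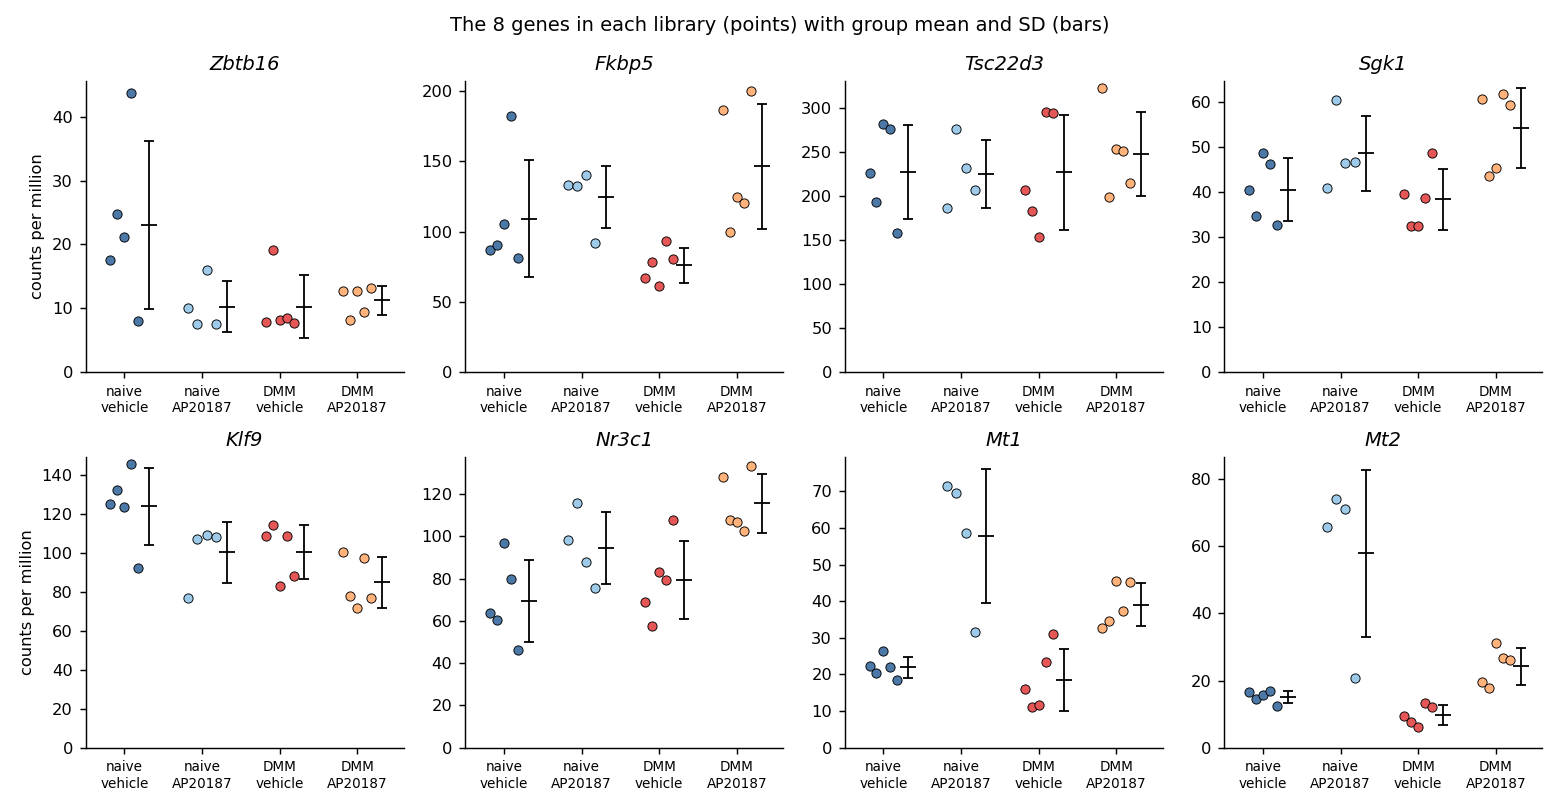
TMM-scaled CPM of the 8 genes, 1 panel per gene, with each library as a point and the group mean with SD as a bar beside it. Zbtb16 is spread from 8.00 to 43.7 CPM in naive vehicle libraries and lies between 7.49 and 19.1 in the others. Mt1 and Mt2 of both AP20187 groups lie above the vehicle group of the same surgery, with naive AP20187 library 5 the lowest of its group for both.

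Zbtb16 encodes a zinc finger repressor of the BTB family, also called PLZF, which is known for its role in progenitor cells and innate-like lymphocytes and as a glucocorticoid target in many tissues. Its levels in naive vehicle libraries 1 to 5 were 17.5, 24.7, 21.2, 43.7 and 8.00 CPM. Naive AP20187 libraries 1, 3, 4 and 5 had 10.03, 7.53, 16.0 and 7.49 CPM. Thus 4 of 5 naive vehicle libraries lay above all 4 naive AP20187 libraries, and the fifth lay among them. DMM vehicle libraries 32, 33, 34, 63 and 64 had 7.80, 19.1, 8.10, 8.43 and 7.76 CPM. DMM AP20187 libraries 58 to 62 had 12.7, 8.16, 12.8, 9.41 and 13.2 CPM. Outside naive vehicle the groups overlapped throughout, and only naive AP20187 library 4 and DMM vehicle library 33 exceeded 13.2 CPM.

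Under vehicle, the contrast that chose it, Zbtb16 was lower in DMM than in naive mice by a log2 fold change of -1.17 (SE 0.36). This was -0.80 without naive vehicle library 4 and -1.52 without DMM vehicle library 33. Against naive mice it was -1.49 for DMM vehicle 63 and 64 and -0.98 for 32 to 34. In naive mice the drug's log2 fold change was -1.16 (SE 0.39), from the same 5 naive vehicle libraries, so it repeats their high level and is given without a test. In DMM mice the drug's value, from the same DMM vehicle libraries and so also without a test, was 0.13 (SE 0.36). It was 0.50 against DMM vehicle 63 and 64 and -0.055 against 32 to 34. The comparison of DMM with naive mice under AP20187 shares no library with the one that chose the gene. There Zbtb16 differed by 0.13 on the log2 scale (SE 0.38, edgeR adjusted p = 0.899), within the spread of the libraries.

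Nr3c1, the glucocorticoid receptor itself, had 63.8, 60.4, 97.0, 80.0 and 46.2 CPM in naive vehicle libraries 1 to 5 and 98.4, 115.6, 87.9 and 75.6 CPM in naive AP20187 libraries 1, 3, 4 and 5. DMM vehicle libraries 32, 33, 34, 63 and 64 had 68.9, 57.6, 83.2, 79.5 and 107.5 CPM. DMM AP20187 libraries 58 to 62 had 128, 107.7, 106.8, 102.3 and 133 CPM. Of the 5 DMM vehicle libraries 4 lay below every DMM AP20187 library, and number 64 lay among them. With AP20187 the log2 fold change was 0.54 in DMM mice (SE 0.20, edgeR adjusted p = 0.0510) and 0.44 in naive mice (SE 0.21, adjusted p = 0.165), neither past the threshold of 0.05. The first passed with DESeq2 (adjusted p = 0.0174), with RLE normalization (adjusted p = 0.0365), in a model of those 2 groups alone (adjusted p = 0.0411), against DMM vehicle 32 to 34 (0.73, adjusted p = 0.0159) and in 6 of 19 fits that left out 1 library. Against DMM vehicle 63 and 64 it was 0.32 (adjusted p = 0.536).

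Of 12 listed genes that supply, hold or assist the receptor, 11 were tested. In DMM mice 1 rose and 3 fell with AP20187, 36.4% of the list beside 23.8% of all genes tested, with a median log2 fold change of -0.43 beside -0.10. Hsd11b1, the enzyme that regenerates active glucocorticoid from its inactive form, rose from 9.79 ± 8.41 to 94.4 ± 25.6 CPM (SD, n = 5 each), or by 3.27 on the log2 scale (SE 0.51, edgeR adjusted p = 0.000483). Nr3c2, the mineralocorticoid receptor, fell by 0.84 on the log2 scale (SE 0.22, adjusted p = 0.0119). The co-chaperone Fkbp4, whose action on the receptor opposes that of Fkbp5, fell by 0.74 (SE 0.21, adjusted p = 0.0197), and the chaperone Hsp90ab1 fell by 0.70 (SE 0.23, adjusted p = 0.0335). Hsd11b1 kept its call against DMM vehicle 63 and 64 (2.42, adjusted p = 0.0239) and the other 3 did not, at -0.35 for Nr3c2, -0.60 for Fkbp4 and -0.51 for Hsp90ab1, while against 32 to 34 all 4 passed. In naive mice Hsd11b1 alone passed, 9.09% of the list beside 11.2% of all genes. It went from 5.45 ± 2.84 CPM with vehicle (n = 5) to 69.1 ± 34.3 with AP20187 (n = 4), or by 3.66 on the log2 scale (SE 0.54, adjusted p = 0.000540). Granulocyte precursor markers rose in both comparisons (6 of 7 in DMM and 7 of 7 in naive mice), and 6 of 8 neuron markers fell in DMM mice. Their part in the changes of these 4 genes was not tested.

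Fkbp5 had 87.1, 90.7, 105.6, 182 and 81.1 CPM in naive vehicle libraries 1 to 5 and 133, 132, 140.4 and 91.7 CPM in naive AP20187 libraries 1, 3, 4 and 5. DMM vehicle libraries 32, 33, 34, 63 and 64 had 66.8, 78.1, 61.2, 93.2 and 80.8 CPM. DMM AP20187 libraries 58 to 62 had 187, 99.5, 124.8, 120.4 and 200.3 CPM. All 5 DMM AP20187 libraries lay above all 5 DMM vehicle libraries, while the naive groups overlapped. The log2 fold change with AP20187 was 0.95 in DMM mice (SE 0.24, edgeR adjusted p = 0.00937, all 19 fits without 1 library past the threshold). In naive mice it was 0.19 (SE 0.25, adjusted p = 0.636). The drug's effect in DMM minus that in naive mice was 0.76 (SE 0.34, adjusted p = 0.617), so the difference between the 2 effects did not pass the test. Without naive vehicle library 4 the naive value was 0.45 and the difference of the effects 0.50.

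Sgk1 encodes a kinase that acts on ion channels and transporters and was named for its induction by serum and glucocorticoid. Its levels were 43.6 to 61.8 CPM in DMM AP20187, 32.3 to 48.7 in DMM vehicle, 40.9 to 60.4 in naive AP20187 and 32.6 to 48.6 in naive vehicle libraries. Neighbouring groups overlapped. With AP20187 Sgk1 rose in DMM mice by 0.50 on the log2 scale (SE 0.16, edgeR adjusted p = 0.0342), and in naive mice it was 0.26 (SE 0.17, adjusted p = 0.316). The DMM call held in 12 of 19 fits that left out 1 library and was lost in the other 7, at adjusted p up to 0.0889. Those left out number 58, 61 or 62 of the drug group, or 32, 33, 34 or 63 of the vehicle group. It was also lost with no filter on low counts (adjusted p = 0.0571) and with no TMM scaling (adjusted p = 0.0528).

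The promoter table of RefSeq (build GRCm38.p6) matched 6 of the 8 genes by symbol, with none for Zbtb16 or Nr3c1. It was searched on both strands for the glucocorticoid response element palindrome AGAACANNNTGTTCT, in windows of 250 bases before to 50 after each annotated start. The palindrome occurs in 3 of 32851 such windows. One is a start of Sgk1, shown here because it is the only window of the 6 genes with a match, as the 250 bases before the start at chr10:21993640-21993889 on the plus strand. The palindrome, in capitals, begins 189 bases before the start.
Sgk1: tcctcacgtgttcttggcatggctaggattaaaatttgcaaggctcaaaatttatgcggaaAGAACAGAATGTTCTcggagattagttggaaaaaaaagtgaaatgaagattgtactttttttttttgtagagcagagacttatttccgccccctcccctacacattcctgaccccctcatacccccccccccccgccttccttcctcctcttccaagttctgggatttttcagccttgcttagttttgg
This is 1 of 6 Sgk1 windows, and the other 5 had no palindrome. The shorter half-site AGAACA, which the palindrome contains, occurs in 18.97% of all windows. A match is a description of the letters and not of binding.

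Tsc22d3 encodes GILZ, a leucine zipper protein that restrains inflammatory transcription factors and is a common readout of glucocorticoid action. It had 199 to 322 CPM in DMM AP20187, 154 to 295 in DMM vehicle, 186 to 276 in naive AP20187 and 159 to 282 in naive vehicle libraries. The 4 ranges overlapped almost wholly, and the group means ran only from 225.4 to 248 CPM. The log2 fold change with AP20187 was 0.13 in DMM mice (SE 0.21, edgeR adjusted p = 0.706) and -0.01 in naive mice (SE 0.22, adjusted p = 0.976). DMM vehicle 63 and 64, both at 295 CPM, were above 32 to 34 at 207, 183 and 154 CPM, and against 63 and 64 the DMM value was -0.22 (adjusted p = 0.683) and against 32 to 34 it was 0.45 (adjusted p = 0.110).

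Klf9, a Krüppel-like transcription factor induced by glucocorticoid and thyroid hormone, had 92.3 to 145.4 CPM in naive vehicle, 76.8 to 109.2 in naive AP20187, 82.9 to 114.2 in DMM vehicle and 71.7 to 100.4 in DMM AP20187 libraries. The ranges overlapped in the order of the means, which was naive vehicle, DMM vehicle, naive AP20187 and DMM AP20187. With AP20187 the log2 fold change was -0.24 in DMM mice (SE 0.15, edgeR adjusted p = 0.269) and -0.30 in naive mice (SE 0.16, adjusted p = 0.226). The DMM value was -0.18 against DMM vehicle 63 and 64 and -0.26 against 32 to 34. Klf9 was thus the 1 gene of the 8 with a negative value in all 4 comparisons between groups, and none of the 3 that were tested passed the threshold.

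The metallothioneins passed the test for AP20187 in both naive and DMM mice. Mt1 had 22.2, 20.5, 26.3, 22.2 and 18.6 CPM in naive vehicle libraries 1 to 5 and 71.4, 69.6, 58.7 and 31.6 CPM in naive AP20187 libraries 1, 3, 4 and 5. DMM vehicle libraries 32, 33, 34, 63 and 64 had 15.9, 11.01, 11.6, 23.3 and 31.0 CPM. DMM AP20187 libraries 58 to 62 had 32.8, 34.6, 45.4, 37.3 and 45.3 CPM. Within naive and within DMM mice the drug and vehicle groups did not overlap, although DMM vehicle library 64 came close to the lowest drug library. Mt2 had 16.7, 14.4, 15.6, 16.8 and 12.55 CPM in naive vehicle libraries 1 to 5 and 65.7, 74.0, 71.0 and 20.8 CPM in naive AP20187 libraries 1, 3, 4 and 5. DMM vehicle libraries 32, 33, 34, 63 and 64 had 9.44, 7.60, 6.25, 13.4 and 12.2 CPM. DMM AP20187 libraries 58 to 62 had 19.6, 17.7, 31.2, 26.7 and 26.2 CPM. Mt2 of 3 naive AP20187 libraries therefore stood far above every other library, and the fourth, number 5, was close to the DMM AP20187 group.

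In DMM mice the log2 fold change with AP20187 was 1.07 for Mt1 (SE 0.26, edgeR adjusted p = 0.00852) and 1.31 for Mt2 (SE 0.28, adjusted p = 0.00420). In naive mice it was 1.4 for Mt1 (SE 0.28, adjusted p = 0.00419) and 1.93 for Mt2 (SE 0.30, adjusted p = 0.000881). All 4 calls held in each of 19 fits that left out 1 library. The drug's effect in DMM minus that in naive mice was -0.32 for Mt1 (SE 0.38, adjusted p = 0.924) and -0.62 for Mt2 (SE 0.41, adjusted p = 0.810).

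Mt2 and Mt1 lie side by side on the plus strand of chromosome 8 (GRCm39, from 94899292 to 94900196 and from 94905710 to 94906955), 5514 bases apart, and their annotated transcripts share no exact run longer than 20 bases. Because both rose in both comparisons, their promoters are shown, from 250 bases before to 30 after the RefSeq start in GRCm38.p6, at chr8:94178839-94179118 for Mt1 and chr8:94172368-94172647 for Mt2, plus strand. Capitals mark the core of the metal response element, TGCGCNC or TGCACNC on either strand, to which MTF1 is known to bind.
Mt1: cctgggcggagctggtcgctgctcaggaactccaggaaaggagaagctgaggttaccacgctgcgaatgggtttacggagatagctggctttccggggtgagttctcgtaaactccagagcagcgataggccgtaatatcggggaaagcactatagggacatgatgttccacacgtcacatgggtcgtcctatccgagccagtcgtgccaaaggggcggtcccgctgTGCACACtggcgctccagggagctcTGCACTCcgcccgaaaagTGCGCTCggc
Mt2: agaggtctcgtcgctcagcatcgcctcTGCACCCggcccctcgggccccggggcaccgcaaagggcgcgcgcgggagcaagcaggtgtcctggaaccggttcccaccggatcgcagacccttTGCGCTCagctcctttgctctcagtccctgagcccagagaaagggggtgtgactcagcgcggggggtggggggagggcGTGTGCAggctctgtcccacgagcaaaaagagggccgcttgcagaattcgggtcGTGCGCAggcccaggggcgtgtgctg
Mt1 has 3 matches, 1 before and 2 after the start annotated by RefSeq, and Mt2 has 4, with 3 before and 1 after. Where transcription begins in these libraries was not tested, so a match after that start need not lie in the transcript. Of all 300-base windows 25.7% hold at least 1 match and 1.97% hold 3 or more. Neither window held AGAACA or the palindrome.

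Other genes of metal handling were read from a list of 6, of which 5 were tested. In DMM and in naive mice 2 of the 5 rose, 40% beside 23.8% and 11.2% of all genes. With AP20187 in DMM mice Mtf1, the metal-sensing factor, rose by 0.81 on the log2 scale (SE 0.15, edgeR adjusted p = 0.00123) and Slc30a1, which exports zinc from the cell and is itself an MTF1 target, rose by 0.56 (SE 0.16, adjusted p = 0.0168). Mtf1 kept its call against DMM vehicle 63 and 64 (0.95, adjusted p = 0.0172) and Slc30a1 did not (0.47, adjusted p = 0.267), and against 32 to 34 both passed. In naive mice Slc30a1 rose by 0.60 (SE 0.16, adjusted p = 0.0260). Mtf1 was at 0.42 there (adjusted p = 0.0836). The zinc importer Slc39a10 was at -0.60 in DMM mice (adjusted p = 0.102) and at -0.54 in naive mice (adjusted p = 0.209), where its groups did not overlap. Mt3, the metallothionein known from brain, rose in naive mice too, from 19.96 ± 4.60 to 56.2 ± 26.3 CPM (log2 fold change 1.49, SE 0.30, adjusted p = 0.00467). Its naive groups overlapped, with a lowest value of 20.3 CPM with the drug and a highest of 23.9 with vehicle. All 6 skeletal muscle markers were higher with the drug in naive mice without overlap, and their part in the Mt3 change was not tested. In DMM mice Mt3 was at 24.2 CPM with vehicle and 18.1 with the drug (-0.42, adjusted p = 0.309). Between DMM and naive mice under AP20187 Mt3 fell by 1.63 on the log2 scale (SE 0.30, adjusted p = 0.0176). The difference of the 2 drug effects on Mt3 was -1.91 (SE 0.42, adjusted p = 0.108).

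**Figure D2:**
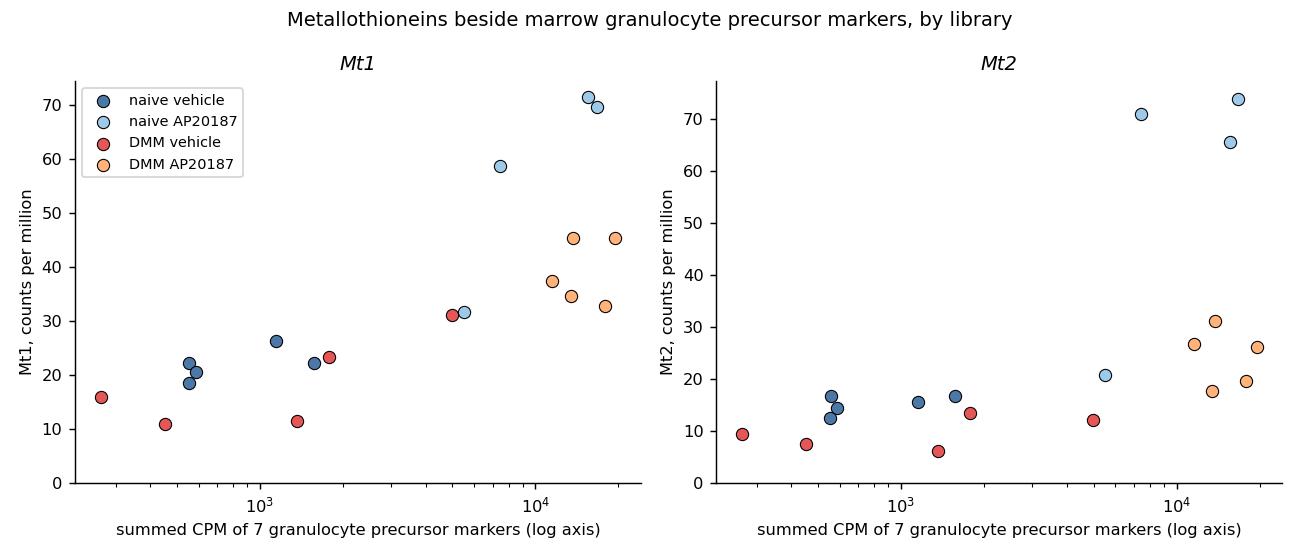
Mt1 (left) and Mt2 (right) in CPM against the summed CPM of 7 granulocyte precursor markers on a log axis, with each library as a point coloured by group. Marker sums reach 19531 CPM in DMM AP20187 and 16682 CPM in naive AP20187 libraries, and both drug groups lie above and to the right of the vehicle group of the same surgery.

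Granulocyte precursor markers rose with the drug in both comparisons, as did Mt1 and Mt2. In naive mice all 6 skeletal muscle markers were also higher with AP20187 without overlap, 2 of them past the threshold. The part of either list in these results was not tested. Within naive AP20187, library 5 had the lowest granulocyte marker sum, 5519 CPM, and the lowest Mt1 and Mt2. Library 4 of that group had a sum of 7456 CPM and Mt2 at 71.0 CPM. Among vehicle libraries, DMM vehicle 64 had the highest granulocyte marker sum, 4989 CPM, and the highest Mt1. The highest Mt2 among them was 16.8 CPM in naive vehicle 4, against 12.2 in DMM vehicle 64. DMM AP20187 library 58 had a sum of 17914 CPM and the lowest Mt1 of its group, 32.8 CPM. The median sum was 13736 CPM in DMM AP20187 and 11522 in naive AP20187, while mean Mt2 was 24.3 and 57.9 CPM.

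Together, 4 of the 7 genes other than Zbtb16 passed the test for AP20187 in DMM mice (Fkbp5, Sgk1, Mt1 and Mt2), all higher, where 23.8% of all 22778 genes tested passed and 11.3% passed as higher. The median log2 fold change of the 7 was 0.54 beside -0.10 over all genes. The groups did not overlap for 3 of them, Fkbp5, Mt1 and Mt2, beside 8.71% of all genes in that direction. These calls depended on which DMM vehicle libraries were used. Against DMM vehicle 63 and 64 none of the 7 passed, with 0.77 for Fkbp5 (adjusted p = 0.181), 0.54 for Mt1 (adjusted p = 0.289), 0.95 for Mt2 (adjusted p = 0.154) and 0.32 for Sgk1 (adjusted p = 0.444), all still positive. Over all genes the number passing there was 1156 rather than 5410. Against DMM vehicle 32 to 34 it was 8449, and 5 of the 7 passed, with 1.09 for Fkbp5, 1.61 for Mt1, 1.64 for Mt2, 0.64 for Sgk1 and 0.73 for Nr3c1. In naive mice 2 of the 7 passed, Mt1 and Mt2, and both did so without overlap, beside 11.2% of all genes called, 8.61% called as higher and 9.39% higher without overlap. The median of these 7 was 0.26 beside -0.07 over all genes. Of the genes called in naive mice 77.0% were higher. This share was 62.9% with no TMM scaling, 64.3% with DESeq2 and 39.2% with limma on FPKM, where calls of lower genes were the majority.

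**Figure D3:**
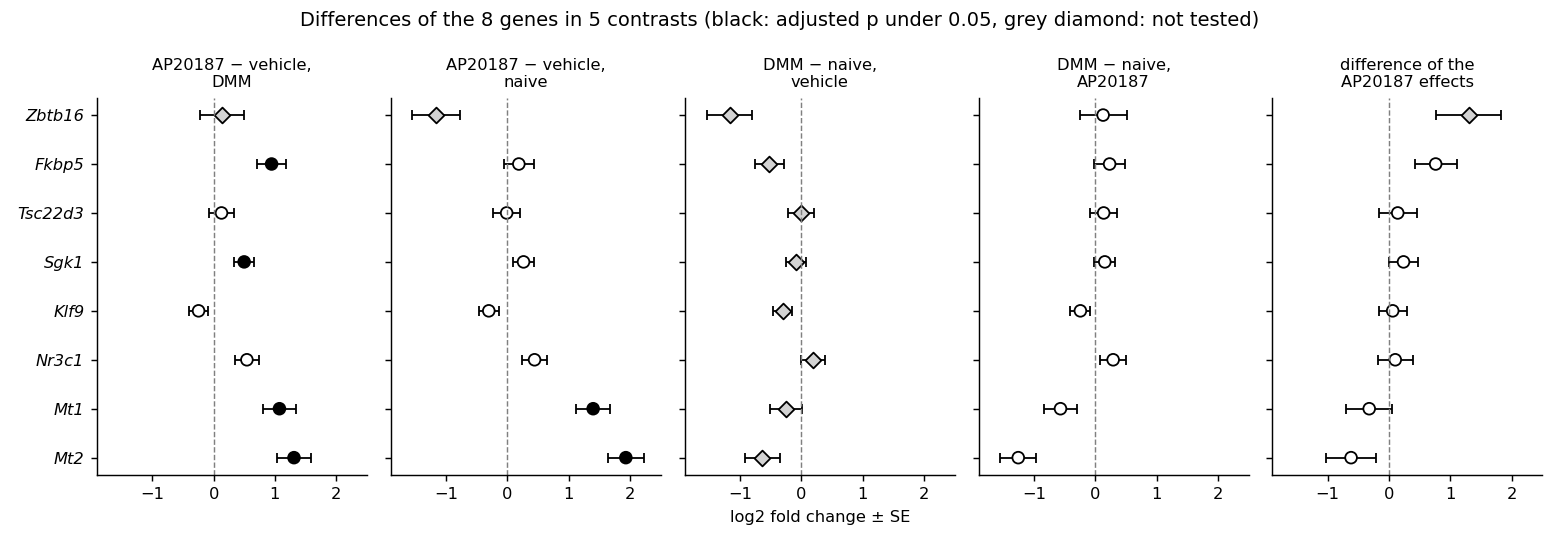
Log2 fold change with SE of the 8 genes in 5 contrasts, with black points for an adjusted p under 0.05 in edgeR's test over all genes and grey diamonds for values given without a test, which are the comparison under vehicle and, for Zbtb16, the drug in DMM and in naive mice and the difference of the drug effects. Black points are Fkbp5, Sgk1, Mt1 and Mt2 with AP20187 in DMM mice and Mt1 and Mt2 with AP20187 in naive mice.

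Under vehicle, 7 of the 8 genes had a negative log2 fold change in DMM relative to naive mice, while 12199 of all 22778 genes tested had a positive one. The count is given as a description because this contrast chose Zbtb16. Beside Zbtb16 at -1.17, the values were -0.63 for Mt2 (SE 0.28), -0.52 for Fkbp5 (SE 0.23), -0.30 for Klf9 (SE 0.15), -0.24 for Mt1 (SE 0.26), -0.08 for Sgk1 and under 0.01 in size for Tsc22d3. Fkbp5 was at -0.26 without naive vehicle library 4. Over all libraries Nr3c1 was at 0.19. No gene of the whole table passed there (0% called), while 541 passed with DMM vehicle 63 and 64 alone and 0 with 32 to 34 alone. Several values changed with the number series of the DMM vehicle libraries. With 63 and 64 only Zbtb16, Fkbp5, Klf9 and Mt2 were negative. For Mt1 the value was 0.33 with DMM vehicle 63 and 64 and -0.77 with 32 to 34, for Tsc22d3 0.40 and -0.33, for Sgk1 0.14 and -0.22, and for Nr3c1 0.46 and 0.0086. Fkbp5 was -0.31 and -0.67, Mt2 -0.23 and -0.97 and Klf9 -0.32 and -0.28, so these 3 kept their sign.

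Under AP20187 none of the 8 genes differed past the threshold between DMM and naive mice, beside 0.702% of all genes. Of the genes called there 37.5% were higher in DMM mice, a share that ran from 13.5% in a model of the 2 groups alone through 59.0% with no TMM scaling to 82.6% with limma on FPKM. Mt2 had the most negative value of the 8, from 57.9 ± 25.0 CPM in naive (n = 4) to 24.3 ± 5.54 in DMM libraries (n = 5), which is -1.25 on the log2 scale (SE 0.29, edgeR adjusted p = 0.0530). It passed with DESeq2 (adjusted p = 0.00416), without naive AP20187 library 5 (-1.55, adjusted p = 0.00146) and without DMM vehicle 32 or 64 (adjusted p = 0.0483 and 0.0478). In the same comparison all 6 skeletal muscle markers were lower in DMM libraries without overlap (median log2 fold change -4.64, none past the threshold), and 3 of 6 spinal cord glia markers (Slc1a2, Olig2 and Mog) were higher without overlap, Slc1a2 past the threshold. Their part in the Mt2 difference was not tested. Mt1 was at -0.57 (SE 0.27, adjusted p = 0.308), and the other 6 lay between -0.24 and 0.29. In the test of whether the drug's effect differed between DMM and naive mice none of the 7 genes other than Zbtb16 passed, beside 0.114% of all genes. For Zbtb16 this difference, 1.30 (SE 0.53), contains the vehicle difference that chose it and is given without a test. The drug comparisons share their vehicle libraries with the surgery comparison and with this test, so their values are not independent of each other.

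A further 23 glucocorticoid-responsive genes, listed from general knowledge, were all tested. With AP20187 in DMM mice 4 rose and 1 fell, 21.7% of the list beside 23.8% of all genes, and the median log2 fold change was 0.19 beside -0.10. Plin4, which coats lipid droplets, rose by 1.54 (SE 0.29, edgeR adjusted p = 0.00180). Nfkbia, the inhibitor of NF-kappaB, rose from 35.2 ± 15.1 to 96.8 ± 22.3 CPM (1.46, SE 0.30, adjusted p = 0.00336). Errfi1, a feedback inhibitor of the EGF receptor, rose by 0.54 (adjusted p = 0.0483), and the arrestin-like Arrdc2 fell by 0.61 (adjusted p = 0.0165). The fourth gene that rose, Bcl6, a BTB zinc finger repressor like Zbtb16, was at 0.45 (adjusted p = 0.0337). Against DMM vehicle 63 and 64 only Arrdc2 passed (-0.83, adjusted p = 0.0344), with Plin4 at 1.23, Nfkbia at 0.94, Errfi1 at 0.42 and Bcl6 at 0.36. Against 32 to 34, 8 of the 23 passed, all of the 5 but Arrdc2 among them.

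**Figure D4:**
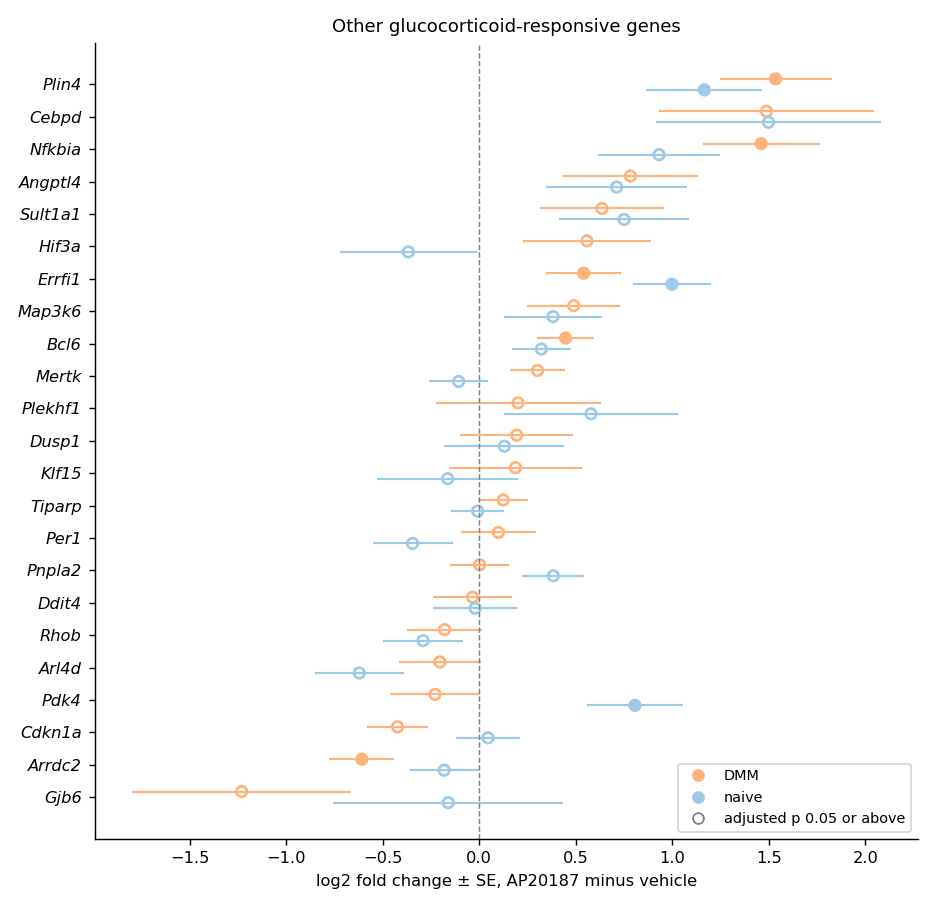
Log2 fold change with SE for AP20187 minus vehicle of the 23 other glucocorticoid-responsive genes, in DMM (orange) and naive mice (blue), with filled points for an adjusted p under 0.05. Plin4 and Errfi1 are filled in both, and the open points run from below -1 for Gjb6 in DMM mice to about 1.5 for Cebpd in both.

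In naive mice 3 of the 23 genes rose and none fell, 13.0% beside 11.2% of all genes, with a median of 0.13 beside -0.07. Plin4 rose by 1.17 (SE 0.30, edgeR adjusted p = 0.0191), Errfi1 by 1.00 (SE 0.20, adjusted p = 0.00496) and Pdk4, a brake on glucose oxidation, by 0.81 (SE 0.25, adjusted p = 0.0424). Without naive AP20187 library 3 the count was 1. In this comparison all 6 skeletal muscle markers were higher with the drug without overlap (median log2 fold change 3.55, 2 past the threshold). Their part in these 3 calls was not tested. The genes that did not pass ran in DMM mice from -1.23 for Gjb6, a gap junction protein (adjusted p = 0.121), to 1.49 for Cebpd, a transcription factor of the C/EBP family (adjusted p = 0.0597). In naive mice they ran from -0.62 for Arl4d (adjusted p = 0.0858) to 1.499 for Cebpd (adjusted p = 0.100), whose naive groups did not overlap. Gjb6, Arl4d and Cebpd are named as the ends of these ranges, after their values were seen. None of the 23 passed in the other 3 contrasts.

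Among 8 relatives of the genes, 2 rose and 1 fell with AP20187 in DMM mice, 37.5% beside 23.8% of all genes. Sgk3, a kinase close to Sgk1, rose from 29.5 ± 9.67 to 65.7 ± 11.3 CPM (log2 fold change 1.15, SE 0.23, edgeR adjusted p = 0.00255), a larger value than that of Sgk1. Klf13, a relative of Klf9, rose by 0.65 (SE 0.19, adjusted p = 0.0206). Zbtb32, a relative of Zbtb16 at a low level, fell by 1.69, from 0.840 to 0.259 CPM (SE 0.47, adjusted p = 0.0174). None of the 8 relatives passed against DMM vehicle 63 and 64, with Sgk3 at 0.83, Klf13 at 0.79 and Zbtb32 at -0.96, and against 32 to 34 Sgk3 and Zbtb32 passed and Klf13 did not (0.56, adjusted p = 0.0546). In naive mice Sgk3 alone passed, with 0.83 (SE 0.24, adjusted p = 0.0329), 12.5% of the 8 beside 11.2% of all genes.

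Levels of different genes were compared as FPKM, the deposited values per kilobase. In naive vehicle libraries Tsc22d3 was the most abundant of the 8, at 51.3 ± 12.7 FPKM (SD, n = 5), followed by Mt2 at 25.3 and Klf9 at 25.1, Mt1 at 17.2, Fkbp5 at 11.3, Nr3c1 at 8.86, Sgk1 at 8.07 and Zbtb16 at 4.25 ± 2.43. Only Tsc22d3 was separated from its neighbour in this order, and all the later neighbours overlapped over the 5 libraries. In naive AP20187 libraries Mt2 came first at 83.4 ± 34.3 FPKM (n = 4), ahead of Tsc22d3 at 44.7, and these 2 overlapped. Zbtb16 was last in all 4 groups. Over all 19 libraries the highest CPM was 11.8 times the lowest for Mt2, 6.48 times for Mt1, 5.83 times for Zbtb16, 3.27 times for Fkbp5 and 1.91 to 2.88 times for the other 4.

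Differences between libraries of the same group do not use the contrast that chose Zbtb16. After group means of log2 CPM were removed, Zbtb16 and Fkbp5 had a Pearson r of 0.63 over 19 libraries (permutation within groups, p = 0.0116, adjusted over 7 relations p = 0.0814) and a Spearman rho of 0.63 (permutation p = 0.00876, adjusted p = 0.0613). Neither passed after adjustment. Without naive vehicle 4 and DMM vehicle 33, the 2 libraries farthest from the median of Zbtb16, r was 0.53. Without naive vehicle 4 and 5, the 2 farthest from their group mean, r was 0.43 (permutation p = 0.0876), so the relation rests in part on those libraries. With separate means for DMM vehicle 32 to 34 and 63 to 64 it was 0.72 (permutation p = 0.00251). Naive vehicle 4 had the highest Zbtb16, Fkbp5, Klf9 and Mt2 of its group, and naive vehicle 5 had the lowest value of all 8 genes. For Klf9 r was 0.51 (permutation p = 0.0532, adjusted p = 0.186), and for Tsc22d3, Sgk1, Nr3c1, Mt1 and Mt2 it lay between -0.02 and 0.25.

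**Figure D5:**
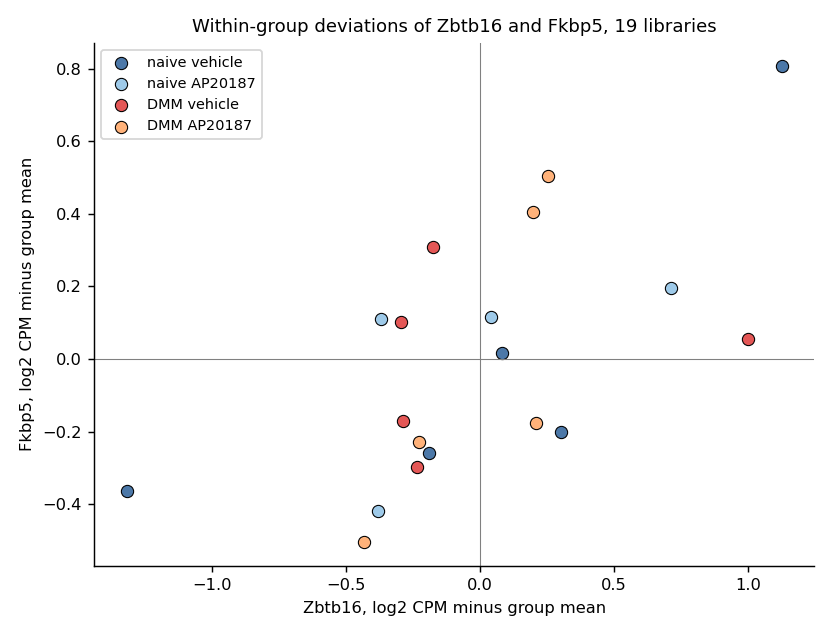
Deviation of Fkbp5 from its group mean against that of Zbtb16, both in log2 CPM, with 1 point for each of the 19 libraries, coloured by group. Naive vehicle library 4 is at the upper right, naive vehicle 5 farthest to the left, and DMM vehicle library 33 is high for Zbtb16 and near its group mean for Fkbp5.

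Other pairs within the 8 genes lay closer together by the same measure, given as a description over libraries that share depth and tissue makeup. Mt1 and Mt2 had an r of 0.85, Tsc22d3 and Sgk1 0.80, and Sgk1 and Nr3c1 0.71. Of 14290 named genes, those most like Zbtb16 by this measure were Lcor (r = 0.88), Lrch3 (0.87), Chd2 (0.80), Bnc2 (0.80) and Foxk1 (0.79). Lcor and Foxk1 encode transcriptional regulators and Chd2 a chromatin remodeller. Fkbp5 ranked 161 and Klf9 530 in that order. Group means need not follow. Lcor was at 8.71 CPM in naive vehicle and 14.0 in DMM AP20187 libraries, where Zbtb16 was at 23.0 and 11.2, while Bnc2 was, like Zbtb16, highest in naive vehicle, at 15.7 CPM, and at 9.56 to 13.2 in the other 3 groups.

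In GRCm39 Zbtb16 lies on chromosome 9 from 48565597 to 48747522, minus strand, and no other gene of the table overlaps it on that strand. Fkbp5 (chromosome 17, 28618068 to 28736498, minus strand) is overlapped on its strand by the predicted genes Gm49839 and Gm49838, Tsc22d3 (X, 139440277 to 139501408, minus strand) by Gm53027 and Klf9 (19, 23118590 to 23145498, plus strand) by Mir1192, so their reads could be shared. Sgk1 (10, 21758083 to 21875797, plus strand) and Nr3c1 (18, 39543598 to 39624352, minus strand) have no such neighbour.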

How the data were processed

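RNA of 19 libraries in 4 groups was analysed, grouped by their labels. The authors deposited a gene table with raw counts and FPKM side by side, and the submitters' processing notes name cutadapt, HISAT2, StringTie and GRCm39, with no version. The counts of all 36682 genes equal those of the deposited count matrix, and no 2 libraries were identical. FPKM, deposited by the authors and normalized for gene length, were used for levels between genes and with limma 3.58.1 on log2(FPKM + 1).

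Counts were tested with edgeR 4.0.16 (R 4.3.3): filterByExpr with a minimum of 10 (22778 genes kept), TMM, 1 quasi-likelihood model of the 4 groups without further terms, 2-sided F tests and Benjamini-Hochberg adjustment over all genes kept, with a threshold of 0.05. On simulated counts for AP20187 against vehicle in DMM mice (22778 genes), 28% of 100 genes changed 2-fold and 51% of 100 changed 4-fold were recovered, with 3 false calls. The changed genes were drawn at random from genes of all levels, and no other gene was changed. In the data 5410 genes passed, so the adjustment was stricter in the simulation. Its shares therefore need not hold for the 8 genes. Relations within groups used 100000 permutations. Genes named from the other lists are up to 3 per direction with the largest change among those called. Bcl6, Gjb6, Arl4d, Cebpd and Slc39a10, Mt3 in DMM and Mtf1 in naive mice were named after their values were seen. Alternatives were DESeq2 1.42.0, RLE, no filter, no TMM, FPKM, pairs of groups, each DMM vehicle number series, a block on sample number and leaving out each library. The 8 genes, the lists and the tests were chosen with earlier results of these data known.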

Additional observations from a re-analysis of the deposited data

Results flagged for a closer look

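Each gene was checked in each group for a library that stands apart by Dixon's test at the 95% level, 32 sets in all, where chance marks about 1 in 20. This marked 5 values. DMM vehicle 33 had 19.09 CPM of Zbtb16, and the next library of its group had 8.43. Naive vehicle 4 had 182.3 CPM of Fkbp5, next to 105.6. Naive AP20187 library 5 had 91.75 CPM of Fkbp5, below the next at 132.4, and 20.77 CPM of Mt2, below the next at 65.7. Naive AP20187 library 1 had 76.84 CPM of Klf9, below the next at 106.8.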

How the results depend on the processing

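Under settings other than leaving out a library, 193 of 209 tested values of single genes kept their direction and side of the threshold, and 81 of 87 values given without a test kept their direction. Against DMM vehicle 63 and 64 only, the drug in DMM mice gave 1156 genes, 0 of the 7 genes other than Zbtb16 and 1 of the 23 others, DMM against naive under vehicle gave 541 genes and the difference of the drug effects 90. Against 32 to 34 the drug in DMM mice gave 8449 genes and 8 of the 23. There Zbtb16 was at -0.055, and the difference of drug effects for Mt1 at 0.21. Against 63 and 64 Tsc22d3 was at -0.22 in DMM mice, and the differences of drug effects were -0.25 for Tsc22d3 and -0.16 for Nr3c1. Of the 23 genes, 3 passed in DMM mice with no filter, 3 with no TMM scaling and 2 in a model of those 2 groups alone. In a model of the 2 naive groups alone Tsc22d3 was at 0.018. With DESeq2 the drug in naive mice gave 4356 genes and 6 of the 23, DMM against naive under AP20187 gave 1109 genes, 1 of the 8 and 1 of the 23, and the difference of the drug effects 224. With FPKM these were 4147 for naive mice, 1220 and 1 of the 23 under AP20187, and 56. With no filter DMM against naive under AP20187 gave 73 genes and the difference 13, and a model of the 2 AP20187 groups gave 1 of the 23. With separate means for the number series, r of Zbtb16 and Mt1 was 0.15. Without naive vehicle 4 and 5, chosen after seeing the data, r of Zbtb16 was 0.43 with Fkbp5, -0.13 with Tsc22d3, -0.28 with Sgk1 and -0.28 with Nr3c1. The causes were not tested.

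Leaving out 1 library gave 3212 to 7677 genes and 3 to 8 of the 23 for the drug in DMM mice, 994 to 3452 genes and 1 to 4 of the 23 in naive mice, 43 to 269 genes, 0 to 1 of the 8 and 0 to 1 of the 23 under AP20187, and 12 to 57 for the difference of the drug effects. The sign changed for Tsc22d3 in naive mice (-0.12 to 0.077) and under vehicle (-0.12 to 0.11), Zbtb16 under AP20187 (-0.0068 to 0.43) and the differences of drug effects for Klf9 (-0.049 to 0.13) and Nr3c1 (-0.0498 to 0.24).

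Naive mice share the numbers 1, 3, 4 and 5 across groups, but same-numbered libraries had correlations of their deviations of 0.01, 0.25, -0.05 and 0.22, and 2 of 4 correlated best with their own number, so the numbers were not taken to pair mice. With a replicate block on the number, 2352 genes passed in naive mice, 2 of the 7 genes and 4 of the 23. The same 8 libraries without the block, chosen after seeing the data like the fit with no TMM, gave 1388 genes. With 4 or 5 libraries a group, changes of 2-fold and of 4-fold can be missed. Of simulated ones 28% and 51% were recovered in DMM mice, where far fewer genes were changed than passed in the data. These shares therefore need not hold for the 8 genes.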
